A study of Drosophila melanogaster with 2 samples.

Results

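Broad occupancy was examined at 8 nuclear receptor genes of Drosophila melanogaster: Hr3, Hr4, Hr38, Hr39, Hr78, Hr96, Eip78C and ftz-f1. The genes were taken by symbol from the Ensembl annotation, and all 8 were found among its 13968 protein-coding genes on the 7 chromosome arms used. Every peak summit in each gene or within 5000 bp of it was listed, which gave 35 of the 6635 summits of the authors' optimal set. The assay was chromatin immunoprecipitation and sequencing (ChIP-seq) of 1 group with 2 biological replicates. Both came from whole wandering larvae of the last instar, males and females pooled, of the strain br-rj-GFP. This transgenic strain stably makes br-RJ with GFP joined to the C-terminus, from an insertion that the labels describe as targeting br, and the precipitation used an antibody against GFP. What drives the tagged product is not given in the sources used here. An untagged group and the control library were not analysed here.

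The gene br encodes the Broad proteins, zinc finger transcription factors made early after a pulse of ecdysone, the steroid hormone that times moulting and metamorphosis. Nuclear receptors are transcription factors with a zinc finger DNA-binding domain and, in most, a ligand-binding domain, and several are themselves made in response to ecdysone. Hr3, Hr4 and ftz-f1 form the known chain at the onset of metamorphosis, in which the products of Hr3 and Hr4 act on the early genes and on ftz-f1, and the product of ftz-f1 gives prepupal tissues the competence to respond to the next hormone pulse. Because whole larvae were used, fewer cells with an occupied site and a weaker occupancy in each cell cannot be told apart. The lists hold positions and signals and no expression, so the induction of these genes by ecdysone was not examined.

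The strongest occupancy lay inside Eip78C and Hr4, and a summit of 450 stood between the start sites of Hr96 and its neighbour EMC6, while the highest signals of Hr39 and Hr78, 93.7 and 112, were below the median of the optimal set. All 8 genes had at least 1 optimal summit in the gene or within 5000 bp, where 49.9% of all protein-coding genes had one. Among protein-coding genes of at least 3476 bp, the length of the shortest of the 8, the share was 63.2%, and among those of 20000 bp or more it was 68.9%. Hr4 held 12 summits, Eip78C 6, Hr3 and ftz-f1 5 each, Hr38 3, Hr39 2, and Hr78 and Hr96 1 each. Of the 35 summits, 24 lay in the body of a receptor gene and 11 outside it. For 7 of these 11 the nearest protein-coding start site belonged to another gene. The neighbours were CG34221 and Hdc beside Hr3, CG3587 and PIG-K beside Hr4, and l(2)k14505 beside Hr39. Some summits in a gene body were also nearest the start site of another gene. That was CG34221 for the strongest of Hr3 and PIG-K for the summit of 99.4 in Hr4. It was CG2617 for that of 120 in Hr38, l(2)k14505 for the intronic one of Hr39 and Atg3 for that of 100 in ftz-f1. For the strongest summit of Eip78C, among others, it was CG43218.

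Signal is the value that the authors' peak caller wrote for each peak, on a scale that is not stated. It is used here to rank peaks within a list and, between the replicates, as a ratio. Whether the replicate lists share a scale is not stated either. Over the 35 summits it ran from 80.9 to 1144 with a median of 152, beside 80.0 to 3635 with a median of 137 in the whole set. A count of 18 stood at or above the median of the set (51.4%). The receptor genes held 2 of the 100 strongest summits and 6 of the 1000 strongest, beside 35 of all 6635 (0.528%).

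**Figure D1:**
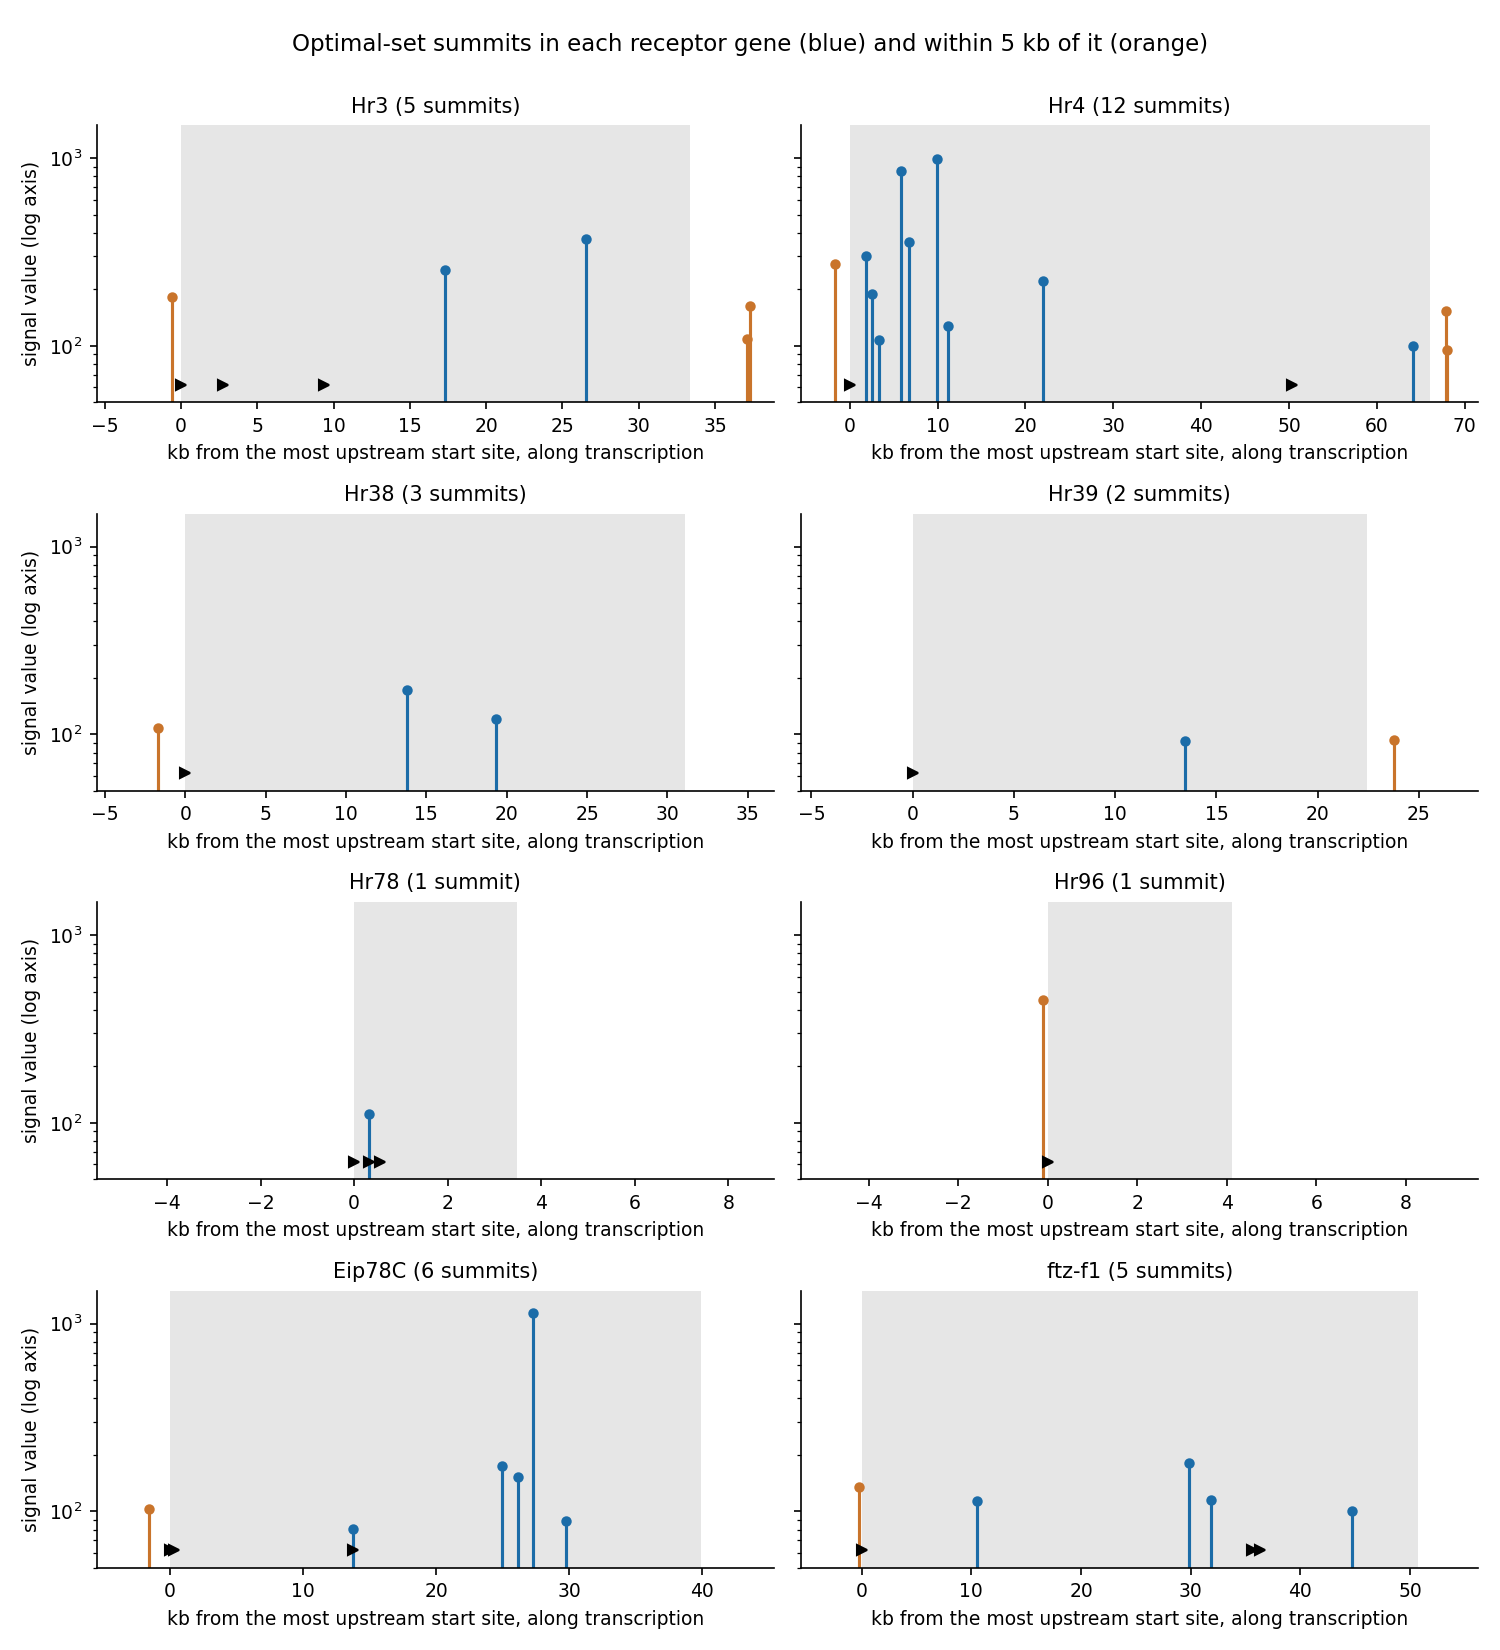
Summits of the optimal set at each receptor gene, with the distance in kb from the most upstream annotated start site along the direction of transcription on the x axis and the signal value on a log y axis. Grey marks the gene, arrowheads its start sites, blue the 24 summits in a gene and orange the 11 outside; the tallest stems are the 1144 of Eip78C and the 990 and 849 of Hr4.

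The sequences under the summits are shown because they are the DNA on which the signals below rest. Each is the 101 bases centred on a summit, on the plus strand of dm6 and written 5′ to 3′, read from the RefSeq copy of that assembly. Capitals mark matches on either strand to any of 7 words of 6 letters. AGGTCA is the half-site that many nuclear receptors bind. The word AGACAA, the word CTATTT, the word AAACTA and the word TAAACA occur in binding sequences described for zinc finger isoforms of Broad. Which of them, if any, fits the tagged br-RJ product was not examined. GAGAGA is bound by GAGA factor and CAGGTA by Zelda. No sequence of Hr3 is printed. The first set holds the strongest summits of Eip78C, Hr4 and Hr96, with signals of 1144, 990 and 450.
Eip78C, chr3L:21253849-21253949: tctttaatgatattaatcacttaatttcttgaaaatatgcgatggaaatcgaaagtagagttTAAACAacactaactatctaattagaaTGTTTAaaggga
Hr4, chrX:1951863-1951963: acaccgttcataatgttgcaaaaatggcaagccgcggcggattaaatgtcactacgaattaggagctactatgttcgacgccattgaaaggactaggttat
Hr96, chr3R:25025080-25025180: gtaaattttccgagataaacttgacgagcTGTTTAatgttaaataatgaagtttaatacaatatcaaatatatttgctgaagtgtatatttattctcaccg
The second set holds the other summits within 1000 bp of a start site of Hr78, ftz-f1 and Eip78C.
Hr78, chr3L:21497125-21497225: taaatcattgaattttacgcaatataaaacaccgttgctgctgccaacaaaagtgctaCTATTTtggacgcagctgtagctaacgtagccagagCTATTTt
ftz-f1, chr3L:18801496-18801596: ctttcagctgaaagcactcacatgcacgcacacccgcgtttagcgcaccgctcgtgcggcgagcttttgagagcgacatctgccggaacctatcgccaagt
Eip78C, chr3L:21240302-21240402: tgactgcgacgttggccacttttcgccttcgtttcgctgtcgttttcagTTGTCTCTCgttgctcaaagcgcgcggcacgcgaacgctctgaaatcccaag
The third set holds the strongest summits of ftz-f1, Hr38 and Hr39, with signals of 180, 172 and 93.7, each more than 1000 bp from the gene's own start sites. That of Hr39 lies 1346 bp outside the gene and 147 bp from the start of l(2)k14505.
ftz-f1, chr3L:18771446-18771546: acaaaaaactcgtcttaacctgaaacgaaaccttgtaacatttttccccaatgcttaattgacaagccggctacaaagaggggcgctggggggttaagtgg
Hr38, chr2L:20700751-20700851: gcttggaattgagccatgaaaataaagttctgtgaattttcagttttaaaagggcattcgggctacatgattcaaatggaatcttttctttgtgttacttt
Hr39, chr2L:21260971-21261071: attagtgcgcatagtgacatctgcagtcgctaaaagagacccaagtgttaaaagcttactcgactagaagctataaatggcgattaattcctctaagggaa

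The strongest window, in Eip78C, was poor in G and C (25.7%) and held TAAACA at each of 2 places, the first starting 12 bp after the summit and the second, on the minus strand, 39 bp after it. That of Hr96 (26.7% G and C) held TAAACA once, on the minus strand, starting 21 bp before the summit. In the Hr78 window CTATTT occurred at 2 places. At the internal start site of Eip78C, AGACAA and GAGAGA overlapped on the minus strand at the summit itself. The printed windows of Hr4 (43.6% G and C), Hr38, Hr39 and ftz-f1 held none of the 7 words, which says only that these letters are not in these 101 bases. Each of these genes had another summit with a word, such as AGACAA and TAAACA at the intronic summit of Hr39.

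Over the 30 summits of the 7 genes whose sequence was read, TAAACA was in 6 windows (20.0%), beside 13.4% of the 5392 windows of the optimal set on the same arms. CTATTT was in 4 (13.3%, beside 10.4%), AGACAA in 2 (6.67%, beside 4.80%) and AAACTA in 1 (3.33%, beside 11.2%). At least 1 of the 4 Broad words was in 11 of the 30 (36.7%), beside 33.6% of the set. AGGTCA and CAGGTA were in 0 of the 30, beside 1.74% and 1.87%, and GAGAGA was in 1, beside 4.97%. Every difference from the set thus rested on a few of the 30 windows. The second Hr4 summit, of 849, held both AAACTA and TAAACA. The G and C content of the 30 windows ran from 23.8% to 67.3% with a median of 38.6%, beside a median of 36.6% in the set.

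Hr3 encodes the fly relative of the vertebrate ROR receptors, and lies on the minus strand of 2R from 10203995 to 10237348. Its strongest summit, at 10210831, had a signal of 371 (rank 736), with 185 in replicate 1 and 191 in replicate 2. The next, at 10220028, had 252, with 115 and 137. Both lay in intron 1 or 2, depending on the transcript, 17126 and 7929 bp downstream of the nearest Hr3 start site. The genes CG12912 and CG46321 also span these positions, and CG46321 has the same distance to its nearest start site from the second, so the summits cannot be given to Hr3 by position alone.

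At the most upstream of the 3 start sites of Hr3, that of Hr3-RD, a summit of 182 lay 579 bp upstream (82.8 in replicate 1 and 99.1 in replicate 2). The start site of Hdc, which encodes histidine decarboxylase, was only 61 bp from it. The start site shared by 3 transcripts at 10227957 had 0 optimal summits within 1000 bp. There the pooled list had a weak summit of 57.3 (rank 9672), with 36.1 and 34.0 in the replicates. The third start site, at 10234607, had no summit within 1000 bp in the pooled list or in either replicate list. Both remaining summits, of 162 and 109, were 203 bp apart and lay 3943 and 3740 bp beyond the 3′ end of the gene, near the start of CG34221.

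Hr4 encodes a receptor that, like that of Hr3, acts on early genes and on ftz-f1, and it also acts in the prothoracic gland on the timing of ecdysone pulses. It lies on the plus strand of X from 1941940 to 2007956. Hr4 held more optimal summits in its window than any other of the 8 genes, and 27 of the 13968 protein-coding genes had more than 12. Its density, 1.58 per 10 kb of gene and window, was reached or passed by 17.8% of genes. Within the gene, 7 summits stood in a stretch of 9330 bp that began 1832 bp and ended 11162 bp downstream of the first start site, in intron 1 or 2, depending on the transcript.

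The strongest of the stretch, at 1951913, had a signal of 990 (rank 84), with 515 in replicate 1 (rank 76) and 492 in replicate 2 (rank 92). The second, at 1947742 and 4171 bp away, had 849 (rank 120), with 417 and 432. In both the replicates were close. The others had 357 (161 and 200), 302 (158 and 150), 188 (85.8 and 122), 127 (71.5 and 57.1) and 108 (70.5 and 37.4). Replicate 2 was higher for some of these and replicate 1 for the rest, and no replicate differed from the other by 2-fold.

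Farther along Hr4, a summit of 222 (86.6 and 131) lay 21976 bp downstream of the first start site in intron 2 or 3. After it no optimal summit followed for 42095 bp, until one of 99.4 (37.3 and 55.1) in the 3′ untranslated part of exon 12. The second start site of Hr4, at 1992300, lay in this gap and had no summit within 1000 bp in any list. The first start site had none in the optimal set. The strongest pooled summit within 1000 bp of it was 13 bp downstream, with a signal of 56.8 (rank 9770), and 28.6 and 27.0 in the replicates. Upstream, a summit of 274 (162 and 115) was 1719 bp from that start site but 86 bp from that of CG3587. Beyond the 3′ end, summits of 154 (61.5 and 98.9) and 94.7 (48.2 and 62.9) lay 382 and 590 bp from the start of PIG-K.

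**Figure D2:**
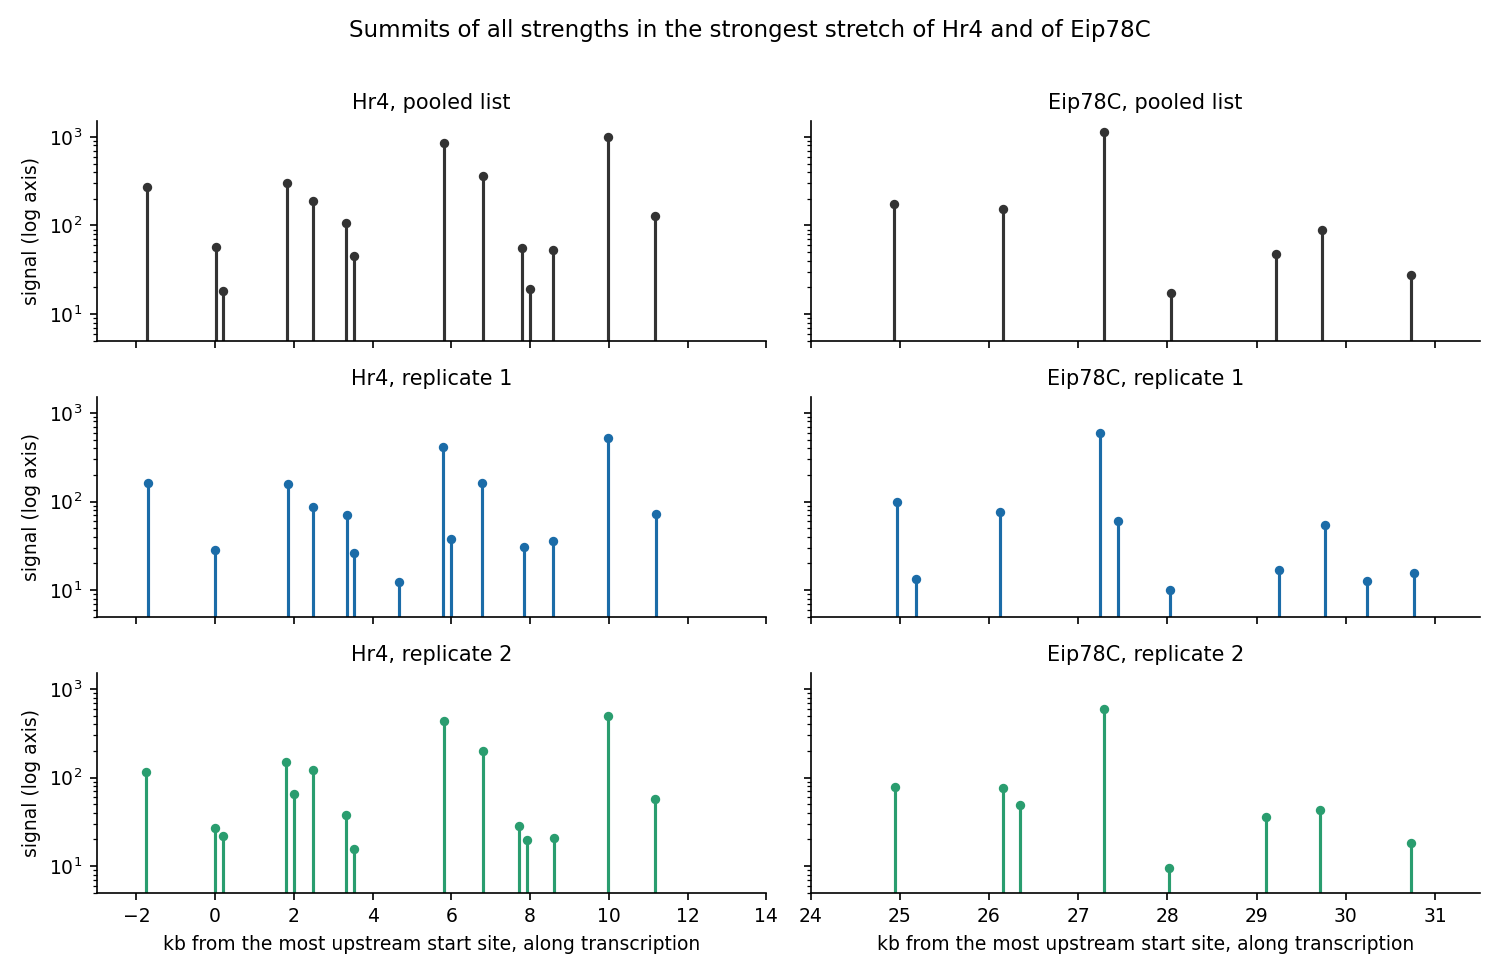
Summits of every strength in the pooled list and in the lists of replicates 1 and 2 along the strongest stretch of Hr4 and of Eip78C, with kb from the most upstream start site along transcription on the x axis and signal on a log y axis. Each list places its tallest stems at the same distances, while the summit at the Hr4 start site is weak in each (56.8, 28.6 and 27.0); pooled and replicate signals are not on 1 scale.

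Eip78C encodes a receptor related to the vertebrate Rev-erb receptors and is named for the ecdysone-induced puff at its place on the polytene chromosome. It lies on the plus strand of 3L from 21226609 to 21266503. Its strongest summit, at 21253899, had the highest signal of the 35, 1144 (rank 61), with 592 in replicate 1 (rank 55) and 590 in replicate 2 (rank 61). This summit was in an intron, 13552 bp downstream of the internal start site of transcript Eip78C-RB and 4121 bp from the start of CG43218.

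Around the strongest summit, 4 summits of Eip78C stood within 4797 bp. The weaker ones had signals of 175 (99.0 in replicate 1 and 77.6 in replicate 2), 152 (76.8 and 76.7) and 88.5 (53.7 and 43.1). At the internal start site, a summit of 80.9 lay 5 bp downstream. It was the weakest of the 35 (rank 6538), and the only one without a summit within 100 bp in both replicate lists. Replicate 2 had a matched summit of 45.2, whereas the strongest of replicate 1 within 1000 bp of the start site, of 33.0, was 111 bp downstream of the start site. Upstream, a summit of 103 (39.8 and 64.3) lay 1598 bp before the first start site. Neither the pooled list nor that of replicate 1 held a summit within 1000 bp of the 2 upstream start sites, and replicate 2 held 1, of 9.90 (rank 28548).

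The gene ftz-f1, on the minus strand of 3L from 18750607 to 18801309, encodes a receptor related to the vertebrate steroidogenic factor, with a maternal alpha form and a prepupal beta form. Its 5 optimal summits had signals between 100 and 180, below those of Hr4 and Eip78C at their strongest. The summit of 180 (rank 2264), at 18771496, had 92.2 in replicate 1 and 87.5 in replicate 2. It lay in intron 2 of ftz-f1-RB, the transcript with the most upstream start site, and 5752 bp upstream of the start site of ftz-f1-RC and ftz-f1-RD. Another in this intron, of 115 (54.4 and 61.9), was 3749 bp upstream of the same start site, and a further one of 113 (51.5 and 56.5) was 10554 bp downstream of the start of ftz-f1-RB.

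The start site of ftz-f1-RB had a summit of 135 (85.7 in replicate 1 and 57.5 in replicate 2), 237 bp upstream. The downstream start sites, at 18765744 and 18764956, had 0 optimal summits within 1000 bp. At the first of these the strongest pooled summit was 68.6 (rank 7952), 207 bp upstream, with 44.3 in replicate 1 and 24.2 in replicate 2 as the strongest of each list within 1000 bp. Of the start sites of ftz-f1, the most upstream thus carried the highest pooled signal. The last summit, of 100 (58.8 and 36.9), was in an intron 8308 bp downstream of the start of ftz-f1-RA.

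Hr39 encodes a receptor of the same subfamily as ftz-f1. It lies on the plus strand of 2L from 21237250 to 21259675 and its highest signal was the lowest among the 8 genes. Its intronic summit, at 21250680 in intron 2, had 91.8 (rank 5634), with 60.0 in replicate 1 and 30.6 in replicate 2. A summit of 93.7 (56.9 and 39.3) lay 1346 bp beyond the gene and 147 bp from the start of l(2)k14505. At the single start site of Hr39, 246 bp downstream, the pooled list had a summit of 79.4 (rank 6689), just under the lowest signal of the optimal set, 80.0. Within 1000 bp of this start site the strongest summits of the replicates were 43.9 and 40.5. With the 6635 strongest peaks of replicate 1 alone, Hr39 had 5 summits in its window, and with those of replicate 2 alone it had 0.

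Hr38 encodes the fly member of the NR4A receptors, which can pair with Ultraspiracle. It lies on the minus strand of 2L from 20683462 to 20714588. The pooled list held 4 summits in its window and 3 of them were in the optimal set, whereas Hr39, a shorter gene, had 20 pooled summits and 2 in the set. The strongest, at 20700801, had a signal of 172 (rank 2419), with 89.8 in replicate 1 and 83.9 in replicate 2. It was intronic and 13787 bp downstream of the start site. Another intronic summit had 120 (56.6 and 63.0), and one of 108 (44.9 and 51.7) lay 1700 bp upstream of the start site. Within 1000 bp of that start site the pooled list had 1 weak summit, of 42.3 (rank 12938).

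Hr78, whose product is needed for growth and for metamorphosis, is a compact gene on the minus strand of 3L from 21494019 to 21497494. Its 1 optimal summit, at 21497175, had a signal of 112 (rank 4389). It lay 8 bp downstream of the start site of Hr78-RE, upstream of that of Hr78-RF and 319 bp downstream of the start site that 4 other transcripts share. The signal was 26.2 in replicate 1 (rank 11747) and 82.3 in replicate 2 (rank 2650). The log2 ratio of replicate 1 to replicate 2, -1.65, was the lowest of the receptor summits, and 38 of the 6181 matched summits of the optimal set (0.615%) were as low or lower. The 6635 strongest peaks of replicate 1 held no summit for Hr78, while those of replicate 2 did.

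Hr96 encodes a receptor that acts in the response to foreign compounds and in the handling of cholesterol and lipids. It lies on the plus strand of 3R from 25025235 to 25029351. Its 1 optimal summit, at 25025130, had a signal of 450 (rank 495), with 229 in replicate 1 (rank 505) and 214 in replicate 2 (rank 580). It lay 105 bp upstream of the single start site and 113 bp from the start site of EMC6, at 25025017, so position alone cannot give it to Hr96. The matched summit of replicate 2 was 104 bp from the Hr96 start and 114 bp from that of EMC6, whereas that of replicate 1 was 123 bp from the former and 95 bp from the latter. Its signal was the highest within 1000 bp of a start site of the 8 genes, and the pooled list held no other in the window. The 6635 strongest peaks of replicate 1 alone held 2 summits in the window of Hr96.

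Near the start sites, at 1000 bp or less, 5 of the 8 genes had an optimal summit (Hr3, Hr78, Hr96, Eip78C and ftz-f1), where 24.3% of all protein-coding genes had one. Their signals were 182, 112, 450, 80.9 and 135. In the pooled list of 30000 peaks, 8 of 8 had a summit at this distance, where 46.3% of all protein-coding genes had one. The genes have 17 start sites in all, of which 7 had an optimal and 13 a pooled summit within 1000 bp. The same optimal summit counted at all 3 start sites of Hr78, and no share over all start sites is given here. A summit near any start site of a gene counted. No share was computed for genes of like length or with as many start sites. Only Hr3 and Hr96 had a near summit at or above the median signal of the set. At a distance of 500 bp Hr3 no longer counted, and its summit was nearer the start site of Hdc (61 bp, against 579 bp).

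By position, 21 of the 35 summits were intronic (60.0%, beside 39.5% of the optimal set) and 9 were within 500 bp of a protein-coding start site (25.7%, beside 40.7%). Intergenic summits numbered 4 (11.4%, beside 15.7%), 1 was in a 3′ untranslated region, and coding exons held 0, as they held 0.256% of the set. Of the 9 promoter summits, 4 were nearest a receptor gene's own start site, those of Hr78, Hr96, Eip78C and ftz-f1. For Hr96 this turned on a few bp, since the match in replicate 1 was nearer EMC6. At Hr78, Eip78C and ftz-f1 the nearest start site of another protein-coding gene was 4092, 17668 and 19129 bp away. Start sites of non-coding genes were not considered, and the non-coding gene asRNA:CR43933 also spans the Hr78 summit. The receptor genes have a median length of 32240 bp, beside 2164 bp for all protein-coding genes, and whether length accounts for the shares was not tested.

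**Figure D3:**
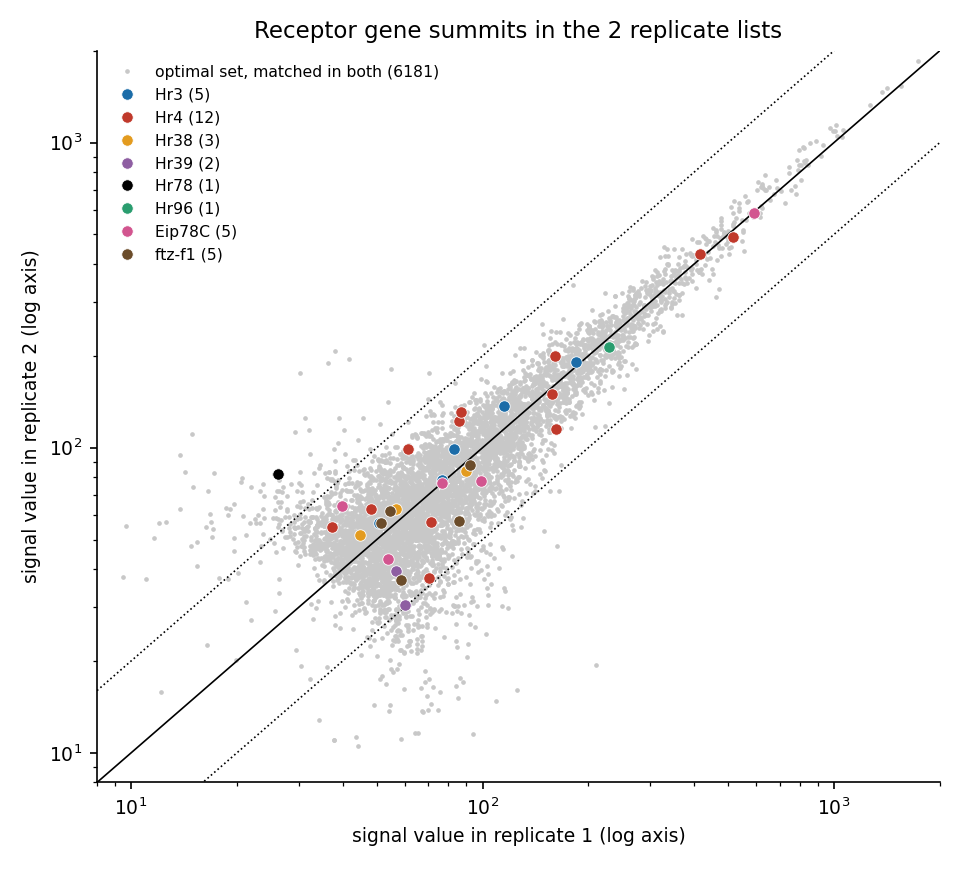
Signal in replicate 1 against signal in replicate 2, both on log axes, for the matched summits of each receptor gene (coloured) and of the whole optimal set (grey). The solid line marks equal signals and the dotted lines a 2-fold difference; Hr78, at 26.2 and 82.3, is the 1 coloured point outside them.

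The replicates were close at the receptor genes, as they were over the whole optimal set. A summit lay within 100 bp in both replicate lists for 34 of the 35 (97.1%), beside 93.2% of the optimal set. Across these 34, the log2 ratio of replicate 1 to replicate 2 had a median of -0.04 and an SD of 0.51, beside 0.02 and 0.52 in the set, and ran from -1.65 at Hr78 to 0.97 at Hr39. Signals differed by less than 2-fold in 33 of the 34. Replicate 1 was the higher in 16. The median distance to the matched summit was 12.5 bp in replicate 1 and 10.5 bp in replicate 2. Since the optimal set comes from both replicates, the matches are not independent of how the set was made.

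Beyond the optimal set, the pooled list held 95 further summits at the 8 genes, all weaker. Hr4 had 22 of them, Hr39 18, Hr3, Eip78C and ftz-f1 17 each, Hr78 3, Hr38 1 and Hr96 0. The 8 genes held 130 pooled summits, 128 in replicate 1 and 133 in replicate 2, which were 0.433%, 0.427% and 0.443% of the lists, beside 0.528% of the optimal set.

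Other nuclear receptor genes and other genes of the ecdysone response were described beside the 8. Of 13 other nuclear receptor genes, 11 had an optimal summit in the gene or within 5000 bp (84.6%) and 7 within 1000 bp of a start site (53.8%). Of 21 other genes of the ecdysone response, 17 (81.0%) and 11 (52.4%) did. The receptor genes had a median of 0.78 summits per 10 kb of gene and window, from 0.62 at Hr39 to 1.58 at Hr4. The other nuclear receptor genes had a median of 1.06 (0.00 to 3.70) and the other ecdysone genes 1.28 (0.00 to 4.42), so all 8 values lay within the ranges of both lists. The median over all protein-coding genes was 0.00. The highest signals of the first list were 1656 at Eip75B, 382 at knrl and 343 at EcR. Those of the second were 1039 at Mi-2, 1012 at MsrA (listed as Eip71CD) and 685 at ImpL2. The 1144 of Eip78C was below that of Eip75B and above that of every other gene of both lists.

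**Figure D4:**
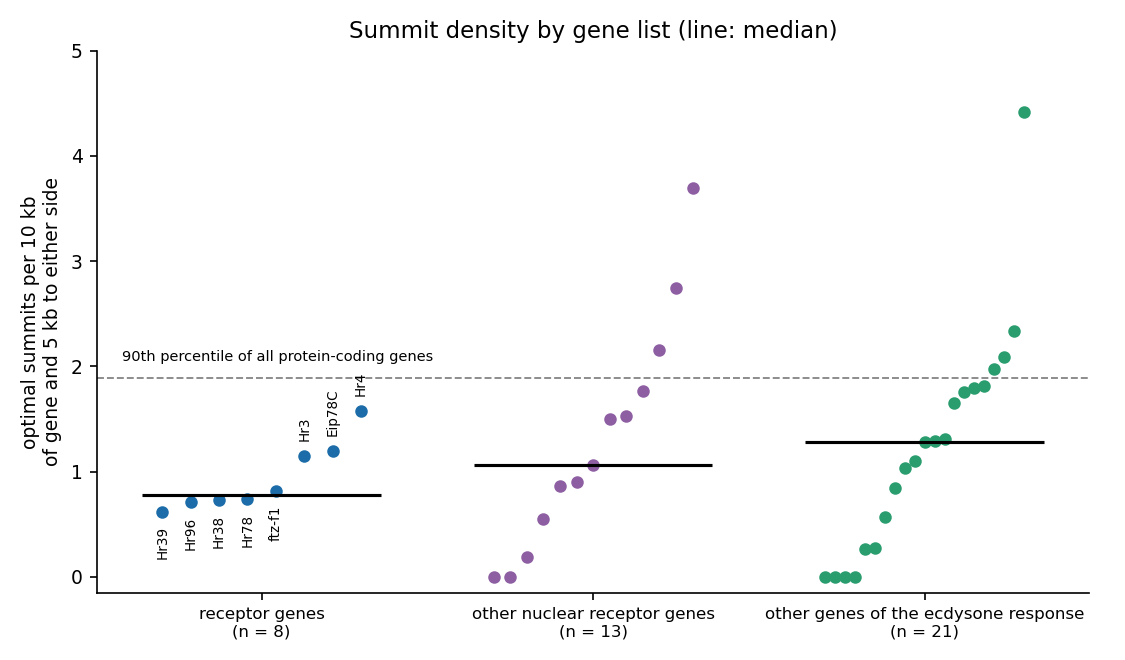
Optimal summits per 10 kb of gene and 5000 bp to either side for each gene of the 3 lists (points), with the median as a line and the 90th percentile of all protein-coding genes, 1.89, dashed. The receptor genes lie between 0.62 and 1.58, all under the dashed line.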

How the data were processed

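Peak lists of 2 replicates on the dm6 build were used, and the lists on dm3 were not used here. The signal value of each peak and its −log10 q value were deposited by the authors as their peak caller wrote them. Each replicate's list and the pooled list hold 30000 peaks made as input for the irreproducible discovery rate step, and the optimal set is what that step kept, per the file names and the README deposited with each replicate. That README also lists a control alignment among the inputs of the peak calls, and it is not analysed here. For the aligner, caller and cutoff, the name is not given in the sources used. The 6635 optimal peaks were the 6635 strongest of the pooled list. Since no list counts reads, the depth is unknown and no interval is given.

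Summits (peak start plus the deposited offset) were placed with Python 3.11.15 and pandas 2.3.3 on Ensembl release 115 (BDGP6.54), 1-based. A replicate's match is its strongest summit within 100 bp. A summit within 500 bp of a protein-coding start site was classed as promoter, and any other by the exon part, intron or intergenic stretch it fell in. With 1 group there was no contrast and no test was run; counts stand beside their share over all genes or peaks. The placement rules were tested on made-up positions. The genes and lists were chosen with earlier results of these data known. All 8 genes are named with every optimal summit, neighbours only where nearer to a summit or spanning it. Of each other list the 3 genes with the highest signal are named. In the lists, 3 older symbols were matched through RefSeq synonyms. Alternatives covered windows, assignment, a stricter signal, match distance, promoter width, word windows and each replicate's own list.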

Additional observations from a re-analysis of the deposited data

How the results depend on the processing

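Of 42 alternative values for counts over all 8 genes, classes and words included, 33 were within 1.5 times of the reported count, leaving aside 8 that were 0 in both. With each replicate's own 6635 strongest peaks in place of the optimal set, the 8 genes had 38 (replicate 1) and 33 (replicate 2) summits, 7 and 7 of the genes had at least 1, and 4 and 5 had one near a start site. The genes near a start site were Hr3, Hr39, Hr96 and ftz-f1 with replicate 1, without Hr78 and Eip78C, and the reported 5 genes with replicate 2. Among peaks at or above the median signal, 18 of the 35 summits were left, at 6 of the 8 genes (not Hr39 or Hr78), and 2 genes had one near a start site. With gene bodies alone 24 summits were counted, at 7 of the genes (not Hr96), and with a window of 10000 bp 38, at all 8. Counting summits in a gene body, or outside it but nearest the gene's own start site, gave 28. With promoters taken as 1000 bp, 2 summits were intergenic. With 100 bp to either side of the summit, AGGTCA was in 1 of the 30 windows (3.33%, beside 3.38% of the optimal set's windows). AGACAA was in 4 (13.3%, beside 9.7%), AAACTA in 4 (13.3%, beside 19.4%) and GAGAGA in 2 (6.67%, beside 12.5%). CAGGTA was in 2 (6.67%, beside 4.17%), CTATTT in 6 (20%, beside 19.5%) and TAAACA in 8 (26.7%, beside 22.8%). With 25 bp to either side, TAAACA was in 5 of the 30 windows (16.7%, beside 7.08%) and AGACAA in 2 (6.67%, beside 2.32%). CTATTT was in 3, beside 5.42% of the set's windows, and AAACTA was in 0, beside 5.8%. GAGAGA was in 1 (3.33%, beside 2.58%), and AGGTCA and CAGGTA were in 0, beside 0.909% and 0.853%. These counts again rested on a few windows. A wider window holds more words by its construction. Of 71 alternative values for single genes, 16 moved past 1.5 times. The number of replicates, 2, and the unknown depth limit how firmly weak summits such as those of Hr39 and Hr78 can be placed. A match among the 6635 strongest of both replicates was found for 27 of the 35 summits. The share of the whole optimal set with such a match is not given here, so whether 27 is high or low cannot be said.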
